A study of Mus musculus with 12 samples.

Results

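The small proline-rich genes (Sprr), involucrin (Ivl) and transglutaminase 1 (Tgm1) were followed in 12 mouse kidneys sequenced as bulk RNA. The genes described are the rows of the count table whose symbol starts with Sprr, plus Ivl and Tgm1, that had at least 10 counts in at least 2 kidneys. Of 23420 genes in the table, 17 carry such a symbol and 6 met the count rule: Sprr1a, Sprr2f, Sprr2g, Sprr2h, Ivl and Tgm1. They were chosen by those counts, with their levels after ischemia known, so values against control are given as a description without a test.

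The kidneys came from adult male C57BL/6J mice, 4 controls and 8 kidneys sampled 24 h after 20 min of ischemia. The study asked how general anaesthesia during renal ischemia alters the transcriptome, so 4 mice were clamped awake and 4 anaesthetised. For these 8 kidneys the sample titles and the group labels disagree on which mice were awake. The 4 kidneys whose titles say anaesthetised but whose group label says conscious are called set A, the 4 with the reverse are called set B, and no direction is given to anaesthesia. The labels list the same 20 min and 24 h for the controls, whereas the study's methods describe the controls as kidneys taken at nephrectomy. Awake mice received brief isoflurane while the implanted clamp was tightened, and it is not stated whether any control and ischemic kidney shared a mouse. The series describes 4 mice per group, so each kidney was taken as 1 mouse.

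The cornified envelope is the cross-linked protein layer that forms beneath the plasma membrane of keratinocytes at the end of their differentiation. Ivl and the Sprr proteins are precursors of that layer, and transglutaminases, mainly Tgm1 at the membrane, join them by covalent bonds. The Sprr genes and Ivl lie together in the epidermal differentiation complex of mouse chromosome 3, and Sprr genes are also known from stressed or regenerating tissues outside the skin. Healthy kidney tubules form no cornified envelope.

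In mm10 with the GENCODE M21 annotation, Sprr2f lay at chr3:92365187-92366442, Sprr2g at chr3:92373915-92375229 and Sprr2h at chr3:92385685-92387324, all 3 on the plus strand. Sprr1a at chr3:92483952-92485895 and Ivl at chr3:92570902-92573735 were on the minus strand, and Tgm1 lay elsewhere, at chr14:55700009-55713926 on the minus strand. GENCODE classes Sprr2g as a polymorphic pseudogene, a term for genes that are intact in some genomes and disrupted in others, and the other 5 as protein coding. From the start of Sprr2a1 to the lowest coordinate of Ivl, its nearer end, the distance was 355 kb. Sprr transcripts resemble each other (Sprr2f and Sprr2g were identical at 71.0% of aligned positions), but none of the 100-base windows of the 6 genes occurred in a transcript of any other gene. Reads of 100 bases that match without error are therefore not shared among them, unlike those of Sprr2a1, where 92.5% of windows recur in another gene.

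The promoters of the cluster are shown because its genes differed widely in counts although they sit side by side, and because they share short motifs. Of the 17 genes, 15 matched a RefSeq promoter entry (GRCm38.p6), and Sprr2g and Sprr2j-ps did not. The 250 bases upstream of the gene's start are printed 5′ to 3′ on the gene's own strand for 4 of the genes described and for Sprr2e, which was nearly silent. Capitals mark the AP-1 motif TGANTCA and the octamer motif ATTTGCAT, each searched on both strands.
Sprr2f (chr3:92364937-92365186, plus strand): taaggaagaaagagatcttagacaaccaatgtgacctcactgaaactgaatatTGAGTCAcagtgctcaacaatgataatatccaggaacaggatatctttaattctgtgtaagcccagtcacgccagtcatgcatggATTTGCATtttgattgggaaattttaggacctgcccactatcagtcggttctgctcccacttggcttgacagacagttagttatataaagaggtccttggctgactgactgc
Sprr2h (chr3:92385435-92385684, plus strand): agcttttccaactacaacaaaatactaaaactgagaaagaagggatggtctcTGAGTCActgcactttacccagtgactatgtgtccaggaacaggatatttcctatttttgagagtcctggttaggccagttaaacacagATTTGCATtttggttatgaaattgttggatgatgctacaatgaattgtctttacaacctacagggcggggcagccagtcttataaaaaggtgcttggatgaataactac
Sprr2e (chr3:92351893-92352142, plus strand): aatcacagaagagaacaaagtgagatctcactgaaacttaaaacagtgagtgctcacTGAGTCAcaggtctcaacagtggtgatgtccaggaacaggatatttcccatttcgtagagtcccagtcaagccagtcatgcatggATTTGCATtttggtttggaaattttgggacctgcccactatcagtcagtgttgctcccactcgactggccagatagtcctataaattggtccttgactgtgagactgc
Sprr1a (chr3:92485882-92486131, minus strand): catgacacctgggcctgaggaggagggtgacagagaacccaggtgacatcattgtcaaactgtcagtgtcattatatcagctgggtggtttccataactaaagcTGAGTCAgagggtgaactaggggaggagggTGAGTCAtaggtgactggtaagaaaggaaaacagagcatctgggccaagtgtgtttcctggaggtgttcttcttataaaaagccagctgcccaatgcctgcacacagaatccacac
Ivl (chr3:92573736-92573985, minus strand): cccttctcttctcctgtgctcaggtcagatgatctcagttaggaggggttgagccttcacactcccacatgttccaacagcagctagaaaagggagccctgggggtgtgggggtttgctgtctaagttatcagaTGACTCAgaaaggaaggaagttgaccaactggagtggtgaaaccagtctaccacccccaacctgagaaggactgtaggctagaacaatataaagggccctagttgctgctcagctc

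The AP-1 motif was present in 10 of the 15 promoters, against 6.75% of 32851 mouse promoter windows of 250 bases. It began at base -197 from the start in Sprr2f, at -198 in Sprr2h, at -193 in Sprr2e, at -116 in Ivl and at both -146 and -116 in Sprr1a. The promoter of Tgm1 did not hold it. The octamer occurred in 7 of 15 promoters, against 1.60% of all, among them Sprr2f at -112 and Sprr2h at -109. All 7 belonged to Sprr2 genes, had the octamer between -112 and -108, and also held the AP-1 motif. Promoters of such related genes are not independent, so neither the AP-1 nor the octamer count is read as an enrichment. Neither motif separated genes with counts from genes without: AP-1 letters were also found upstream of Sprr1b, Sprr2b, Sprr2d, Sprr2i and Sprr2k, of which only Sprr2b had any count. The promoters of Sprr2f and Sprr2e were identical at 71.9% of aligned positions, and those of Sprr2f and Sprr2h at 55.4%. The short motif CACCC, bound by Klf factors, was in 7 of 15 promoters and in 52.0% of all, and the STAT motif TTCNNNGAA was in 1 of 15, that of Tgm1, and in 7.02% of all. These are matches of letters and describe no binding. RefSeq and GENCODE set the start of a gene independently.

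Library totals ranged from 15367342 to 44793350 counts, and 3 counts, taken as the detection floor, correspond to 0.0661 to 0.190 CPM (counts scaled to a common library total, with TMM factors). Such floors cover counting error only. Of 11664 genes tested, 2599 (22.3%) were called between set A and control, and 2659 (22.8%) between set B and control, at an edgeR adjusted p threshold of 0.05. Summed kidney epithelial markers were 7833 to 8621 CPM in controls, 1493 to 1841 in kidneys of set A and 1641 to 2039 in those of set B. Slc34a1, Lrp2 and Slc12a1 fell in both sets, while Umod, Slc12a3 and Aqp2 were not called. Injured-tubule markers summed to 21.5 to 29.96 CPM in controls and to 633 to 1173 CPM in the ischemic kidneys, and 5 of 6 rose in each set. In bulk RNA, fewer cells of a type and less RNA per cell cannot be told apart.

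Ischemic kidneys contained abundant Sprr2g, Sprr2f and Sprr1a RNA and a smaller amount of Ivl, all of which were at or near 0 in the controls. Sprr2h appeared in some ischemic kidneys only. Tgm1 was present in the controls already and its groups overlapped. The 4 kidneys of a set lay above the 4 controls for 4 of the 6 genes (Sprr1a, Sprr2f, Sprr2g and Ivl) in both sets. The same was true of 12.6% of the genes tested for set A, and of 11.6% for set B. The choice of genes used this contrast, so nothing is read from the count.

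**Figure D1:**
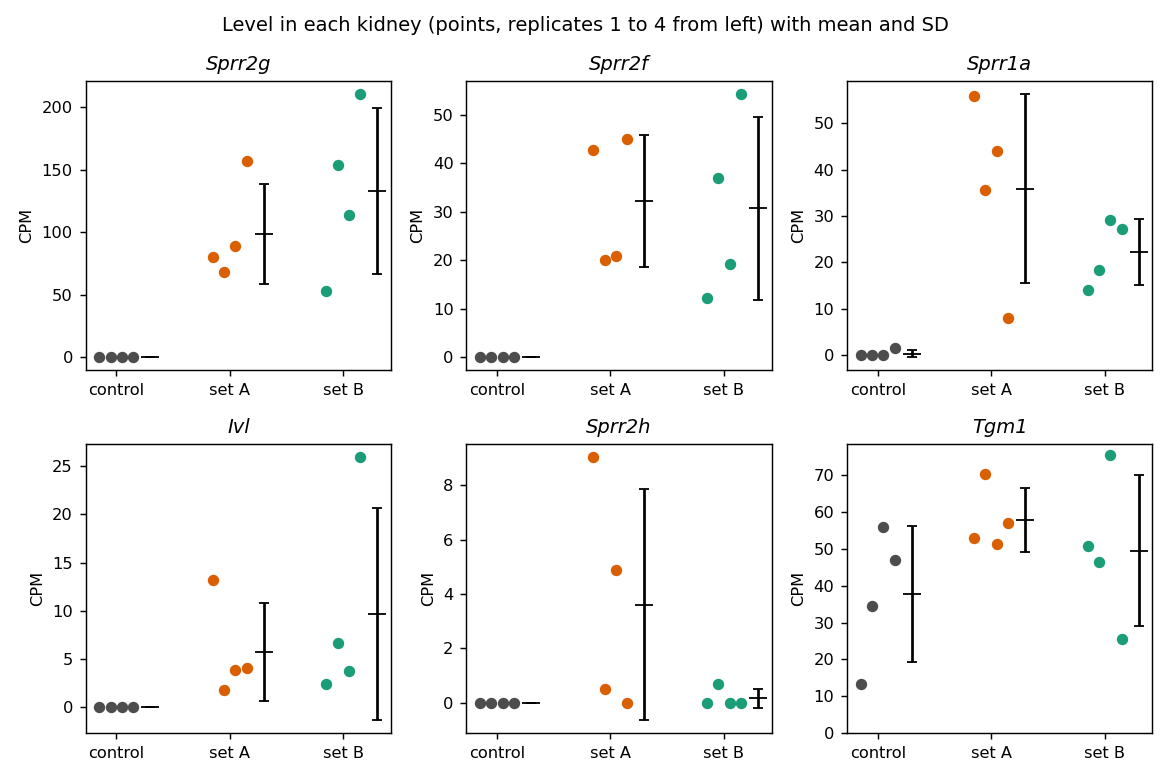
Levels of the 6 genes in CPM (vertical axes, linear) in each kidney of the control group, set A and set B. Points are replicates 1 to 4 from left to right, and the bar beside them gives the mean and SD. Sprr2g, Sprr2f, Sprr1a and Ivl separate ischemic kidneys from controls, whereas Tgm1 overlaps.

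Sprr2g, classed as a polymorphic pseudogene of the Sprr2 group of envelope precursors, gave the most abundant transcript of these genes after ischemia, and only its RNA was measured. Its counts in controls 1 to 4 were 0, 2, 1 and 1. In set A its level was 80.0, 68.3, 89.2 and 157 CPM in replicates 1 to 4. In set B it was 53.3, 154, 114 and 211 CPM. Both sets lay far above the controls and overlapped with each other, and the highest kidney exceeded the lowest 3.95-fold. Against the control floor, the mean of set A (98.7 CPM ± 40.04 SD, n = 4) was higher by at least 949-fold, and that of set B by at least 1278-fold (133 CPM ± 66.3 SD, n = 4). The 3 highest levels, in set B replicate 4, set A replicate 4 and set B replicate 2, belonged to the 3 libraries with the lowest totals. Over the 8 ischemic kidneys its log2 level and the log2 library total gave r = -0.74 (exact permutation p = 0.0378, adjusted p = 0.295 over 15 such relations) and rho = -0.76 (exact permutation p = 0.0368, adjusted p = 0.551), and r was -0.97 without the 2 kidneys of most extreme total.

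Sprr2f encodes a close relative of Sprr2g and is its neighbour in the cluster. The controls gave 0, 0, 1 and 1 counts. Set A gave 42.7, 20.0, 20.8 and 45.03 CPM, and set B gave 12.3, 36.9, 19.3 and 54.2 CPM. No ischemic kidney came near the controls, and the lowest and highest differed 4.42-fold. The means, 32.2 CPM ± 13.6 SD (n = 4) and 30.7 CPM ± 18.8 SD (n = 4), exceeded the control floor at least 309-fold in set A and at least 295-fold in set B.

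Sprr1a, the Sprr gene also known from injured neurons and heart, was the only one of the Sprr genes above the floor in a control. Controls 1 to 3 had no count and control 4 had 58 counts, or 1.52 CPM. The levels were 55.8, 35.5, 44.1 and 8.01 CPM in set A, against 14.1, 18.5, 29.2 and 27.1 CPM in set B. Replicate 4 of set A was thus the lowest for Sprr1a although it was the highest of its set for Sprr2g and Sprr2f. The mean of set A, 35.9 CPM ± 20.4 SD (n = 4), was 94.7-fold above the control mean and that of set B, 22.2 ± 7.14 SD (n = 4), was 58.6-fold above it. Both ratios rest on control 4. Without it the controls were at 0, and against the floor of the other 3 controls the excess was at least 319-fold for set A and at least 197-fold for set B.

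Sprr2h, another Sprr2 gene, met the count rule in 4 kidneys, the fewest of the 6 genes. It had no count in any control, 285, 12, 222 and 0 counts in set A, and 0, 11, 0 and 0 counts in set B. It was therefore carried by replicates 1 and 3 of set A, at 9.04 and 4.89 CPM, and was at 0 in 4 of the 8 ischemic kidneys. The mean of set A (3.61 CPM ± 4.23 SD, n = 4) was at least 34.7-fold above the control floor, it was 1.80 CPM without replicate 1, and no fold is given for set B. Just outside the rule, Sprr2e had 15 counts in set A replicate 1 and 3 counts in set B replicate 1, and none elsewhere.

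Ivl encodes involucrin, the elongated precursor laid down early in envelope assembly. It had no count in the 4 controls. Set A held 13.2, 1.84, 3.81 and 4.03 CPM, and set B held 2.39, 6.70, 3.72 and 26.0 CPM. Each set had 1 kidney well above the rest, and the 8 kidneys spanned a 14.1-fold range, the widest of the 4 genes that were above the floor in all ischemic kidneys and at 0 or near it in controls. The mean was at least 55.0-fold above the control floor in set A (5.71 CPM ± 5.07 SD, n = 4) and at least 93.2-fold in set B (9.69 ± 10.99 SD, n = 4). Without its highest kidney the mean of set A was 3.23 CPM (replicate 1 left out) and the mean of set B was 4.27 CPM (replicate 4 left out).

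Tgm1, the membrane enzyme that cross-links these precursors, behaved differently. The controls had 13.4, 34.5, 55.9 and 46.9 CPM. Set A had 52.9, 70.4, 51.4 and 57.0 CPM, and set B had 50.7, 46.4, 75.5 and 25.5 CPM. Set A overlapped the controls at their upper end, and set B overlapped them widely. The ratio to the control mean (37.7 CPM ± 18.4 SD, n = 4) was 1.54 for set A, and 1.31 for set B. The enzyme's transcript was thus present in controls whose precursor transcripts were at or below the floor, except for Sprr1a in control 4.

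The other Sprr rows held almost nothing. Of 15 Sprr genes, 9 had no count in any of the 12 kidneys: Sprr1b, Sprr2a1, Sprr2a2, Sprr2d, Sprr2i, Sprr2j-ps, Sprr2k, Sprr3 and Sprr4. Sprr2b reached 2 counts in 1 kidney, and Sprr2e is described above. The counts of Sprr2a1 and Sprr2a2 are uncertain, since their reads match both genes. Along the chromosome, Sprr2f, Sprr2g and Sprr2h are consecutive, whereas Sprr1a is separated from them by 5 genes without counts.

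**Figure D2:**
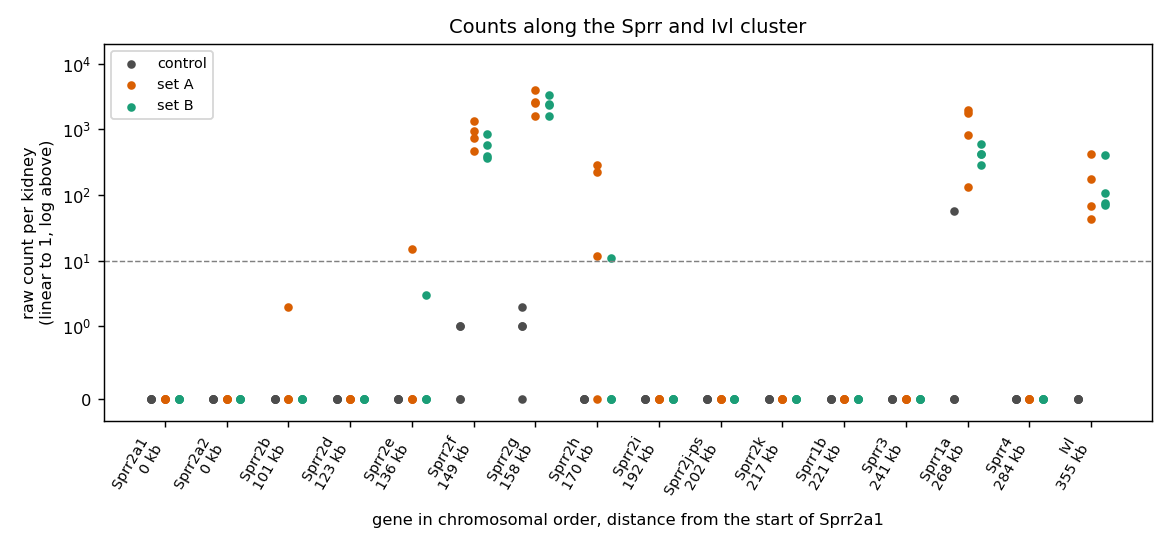
Raw counts per kidney (vertical axis, linear to 1 and logarithmic above) of the Sprr genes and Ivl in chromosomal order, labelled with the distance in kb from the start of Sprr2a1. Each point is 1 kidney, coloured by group, and the dashed line marks 10 counts. Counts are confined to Sprr2b, Sprr2e, Sprr2f, Sprr2g, Sprr2h, Sprr1a and Ivl, and only Sprr2f, Sprr2g, Sprr1a and Ivl pass the line in all 8 ischemic kidneys.

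Levels of different genes were compared per kb of exon. Mean levels in set A were 152 CPM per kb for Sprr2g, 52.8 for Sprr2f, 44.5 for Sprr1a, 18.3 for Tgm1, 4.80 for Sprr2h and 2.97 for Ivl. In set B they were 204 CPM per kb for Sprr2g, 50.3 for Sprr2f, 27.6 for Sprr1a, 15.7 for Tgm1, 5.04 for Ivl and 0.231 for Sprr2h. Sprr2g ranked first in 8 of 8 ischemic kidneys and made up 44.8 to 74.2% (median 70.3%) of the summed level per kb of the 4 Sprr genes. Sprr2f and Sprr1a were not separated, with Sprr2f higher in 5 of 8 kidneys. Sprr2f exceeded Tgm1 in 8 of 8 and Sprr1a exceeded it in 7 of 8. Tgm1 exceeded Ivl in 7 of 8, and Ivl exceeded Sprr2h in 6 of 8.

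The next comparison asked whether the ischemia sets differed. It was made for the 5 genes other than Sprr2h, each of which met the count rule within either set alone. None of the 5 was called, where 1 gene of 11664 (0.00857%) was called in all and 587 (5.03%) had an unadjusted p below 0.05. By edgeR, Sprr2g was 0.43 higher in set B on the log2 scale (SE 0.31, 95% interval -0.23 to 1.08, adjusted p = 0.9997). For Sprr2f the difference was -0.07 (SE 0.41, -0.94 to 0.80, adjusted p = 0.9997). For Sprr1a, whose highest 3 values are all in set A, it was -0.69 (SE 0.77, -2.31 to 0.92, adjusted p = 0.9997). These intervals still hold differences of more than 1 log2 unit for Sprr1a and Sprr2g, so equal levels are not shown. With 1 kidney left out, the difference of Sprr2g ran from 0.12 (without set B replicate 4) to 0.75 (without set A replicate 4), and that of Sprr1a from -1.03 (without set A replicate 4) to -0.40 (without set A replicate 1).

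For Ivl the log2 difference between set B and set A was 0.76 (SE 0.84, 95% interval -1.02 to 2.54, edgeR adjusted p = 0.9997). It became -0.42 without replicate 4 of set B, the kidney with 26.0 CPM, so its direction rests on that kidney. For Tgm1 the log2 difference was -0.22 (SE 0.34, -0.94 to 0.49, edgeR adjusted p = 0.9997), and it ran from -0.50 without set B replicate 3 to -0.01 without set B replicate 4. Sprr2h met the count rule only through set A, so its difference between the sets is not tested and its values above stand as a description.

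Whether the genes varied together was examined in the 8 ischemic kidneys, over 10 pairs of the 5 genes other than Sprr2h, with log2 CPM and exact two-sided permutation tests. No pair passed after adjustment over the 10 pairs, and 3 had an unadjusted p below 0.05. Sprr2f and Ivl gave r = 0.80 (exact permutation p = 0.0141, adjusted p = 0.0870) and rho = 0.86 (exact permutation p = 0.0107, adjusted p = 0.107). Without the 2 kidneys farthest from the median of Sprr2f, r was 0.70. Sprr2f and Sprr2g gave r = 0.79 (exact permutation p = 0.0261, adjusted p = 0.0870) and rho = 0.76 (exact permutation p = 0.0368, adjusted p = 0.184), and r fell to 0.49 without the 2 farthest kidneys. With levels centred within each set, r was 0.86 for both of these pairs. Both Sprr2g and Sprr2f tended to be higher in libraries of lower total, with r = -0.74 for Sprr2g as given above and r = -0.54 for Sprr2f (exact permutation p = 0.170, adjusted p = 0.397, rho = -0.48, exact permutation p = 0.243, adjusted p = 0.575), and r was -0.95 for Sprr2f without the 2 kidneys of most extreme total. For Ivl and library total, r was -0.32 (exact permutation p = 0.442, adjusted p = 0.534, rho = -0.40, exact permutation p = 0.327, adjusted p = 0.575), and -0.75 without those 2 kidneys. Sprr1a and Tgm1 went the other way with library total. Sprr1a gave r = 0.52 (exact permutation p = 0.185, adjusted p = 0.397, rho = 0.60), and 0.06 without those 2 kidneys. Tgm1 gave r = 0.28 (exact permutation p = 0.523, adjusted p = 0.534, rho = 0.31), and 0.47 without them. The part of depth in the relations of Sprr2f with Sprr2g and with Ivl was not tested. In both pairs the kidney with the highest Sprr2f, set B replicate 4, was also the highest for the other gene.

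Ivl and Tgm1, a precursor and its cross-linking enzyme, were negatively correlated, with r = -0.78 (exact permutation p = 0.0223, adjusted p = 0.0870). Their rank correlation was weaker, rho = -0.57 (exact permutation p = 0.151, adjusted p = 0.378), and r was -0.49 without the 2 farthest kidneys, so the relation rests largely on those. Sprr1a was correlated with none of the others by these tests: r was -0.04 with Sprr2f (rho = -0.05), -0.28 with Sprr2g (rho = -0.33), 0.24 with Ivl (rho = 0.05) and 0.04 with Tgm1 (rho = 0.24), with exact permutation p-values between 0.428 and 0.935. Its r with Sprr2g was not stable, being -0.71 without the 2 kidneys farthest from the median of Sprr1a and -0.65 to -0.05 with 1 kidney left out. Leaving out 1 kidney at a time gave between 0 and 2 pairs that passed. The 2 arose without replicate 1 of set A, the kidney with the highest Sprr1a.

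**Figure D3:**
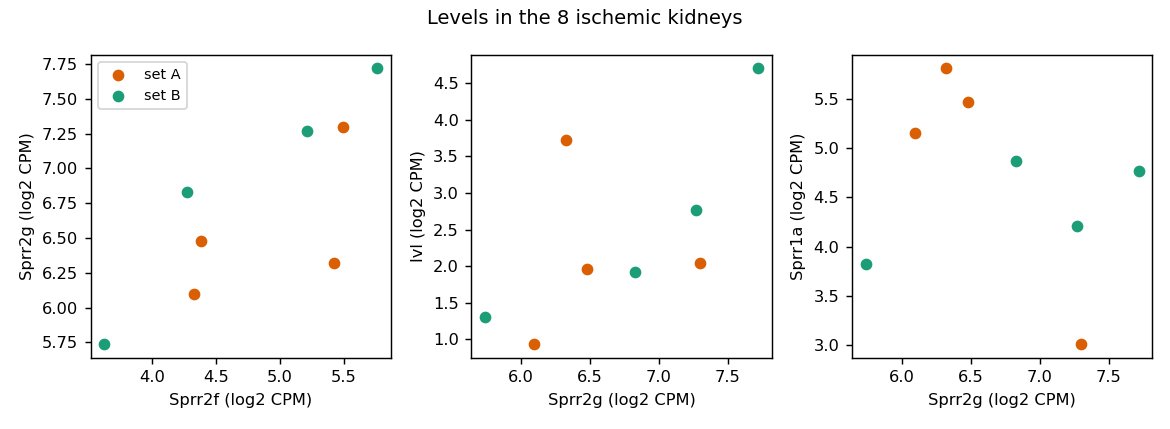
Levels in log2 CPM on both axes for 3 pairs of genes in the 8 ischemic kidneys, 1 point per kidney, coloured by set. The points lie closest to a rising line for Sprr2f and Sprr2g (r = 0.79), less so for Sprr2g and Ivl (r = 0.64), and least so for Sprr2g and Sprr1a (r = -0.28). None of these passed adjustment, and r was 0.18 for Sprr2g and Ivl and -0.71 for Sprr2g and Sprr1a without the 2 kidneys farthest from the median (of Sprr2g and of Sprr1a).

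Outside the family, the genes whose log2 CPM over the 8 ischemic kidneys was most like the mean of the 5 standardised genes were Lynx1 (r = 0.97), Arl4c (r = 0.95), Pkdcc (r = 0.95), Adc (r = 0.94) and Sh2d4b (r = 0.94). Only Arl4c, a small GTPase of the ADP-ribosylation factor-like group, was called higher than control in both sets, with a log2 fold change of 3.34 for set A, and 3.37 for set B (edgeR adjusted p = 0.000149 and 0.000135). The list was not stable. By Spearman's rho 0 of these 5 genes were among the first 5, and with levels centred within sets 3 were. It is the top of a ranking of all tested genes over 8 kidneys and carries no test.

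The partner genes of the cornified envelope were taken from 7 lists with 125 symbols, of which 124 were in the table, 57 had no count in any kidney and 51 could be tested. In set A, 19 of the 51 rose and 2 fell, where 10.5% of all tested genes rose and 11.7% fell. In set B, 21 rose and 4 fell, where 10.9% and 11.9% of all did. The median log2 fold change of the 51 genes was 1.29 for set A, 1.66 for set B, and -0.02 for all genes in both. With the 4 partner genes whose controls were at the floor set to their lower bounds, it was 1.21 and 1.66. Both comparisons use the same 4 controls. Between set B and set A, none of the 51 was called, and their median log2 difference was 0.21. Of the partner genes named here, S100a6, Ppl, Dsp, Ctsd, St14, Klf4, Klf5 and Fosl2 were selected on their values by a stated rule, and the others were picked out after their values were seen.

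Most genes particular to skin had no count. In the list of the epidermal differentiation complex outside Sprr, Ivl and S100 genes, 27 of 33 had no count in any kidney. A single one, Tchh (trichohyalin of the hair follicle), could be tested, and it was not called, with at most 3.84 CPM, reached in a control. Lor, the main late envelope precursor of epidermis, had 39 counts in 1 kidney of set A and none in the other 11. The late envelope genes Lce1g and Lce1b likewise had counts in 1 kidney of set A each, 57 and 22. The kidney with Lce1g counts was the one with Lor counts, and that with Lce1b counts was another. Tchhl1 and Smcp reached their highest counts, 40 and 13, in controls. Among S100 genes, which encode small calcium-binding proteins, 2 of 6 tested rose in each set. S100a6 went from 20.2 CPM ± 5.05 SD (n = 4) in controls to 492 ± 144 SD (n = 4) in set A, and was highest in set B at 699 ± 115 SD (n = 4). Its log2 fold changes were 4.61 (SE 0.20, edgeR adjusted p = 8.74e-11) and 5.12 (SE 0.20, edgeR adjusted p = 4.56e-11). S100a10, a partner of annexin A2, rose by 2.15 and 1.81 log2 units (edgeR adjusted p = 0.00936 and 0.0261). The alarmin gene S100a8 had no count in any kidney.

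Of the scaffold and desmosome genes, 3 of 10 tested rose in set A, and 5 of 10 in set B. Ppl encodes periplakin, a plakin that links the envelope to keratin filaments. It was at 5.18 CPM ± 0.322 SD (n = 4) in controls, 39.8 ± 12.05 SD (n = 4) in set A and, in set B, 60.1 ± 23.9 SD (n = 4), log2 fold changes of 2.94 (SE 0.27, edgeR adjusted p = 3.09e-07) and 3.53 (SE 0.27, edgeR adjusted p = 4.06e-08). Its usual partner envoplakin, Evpl, was not called, with 6.90 CPM ± 2.93 SD (n = 4) in controls and 2.05 ± 1.74 SD (n = 4) in set A. Dsp, the desmosomal plaque protein desmoplakin, rose by 1.44 (SE 0.26, edgeR adjusted p = 0.000392) and 1.84 (SE 0.26, edgeR adjusted p = 3.50e-05) log2 units. Anxa1 (annexin A1) rose in both sets, while Jup (plakoglobin) and Pkp1 (plakophilin 1) were called in set B only, and neither was called between the sets.

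Among the enzymes, Tgm2, the widely expressed tissue transglutaminase, rose by 0.86 and 0.89 log2 units (edgeR adjusted p = 0.00693 and 0.00512), from 98.2 CPM ± 6.09 SD (n = 4) in controls. It was 1 of 2 tested genes of its list, and 4 of the 8 listed had no count. Of the lipid-envelope enzymes, 5 of 8 had no count, and the epidermal lipoxygenase Aloxe3 was the 1 gene of 3 tested that rose. It had no count in controls, 0.684 to 4.89 CPM in set A, and at most 2.21 CPM in set B. Of the proteases and inhibitors, 7 of 11 had no count and 2 of 4 tested rose in each set. They were Ctsd, the lysosomal protease cathepsin D, with log2 fold changes of 1.56 and 1.95 (edgeR adjusted p = 1.53e-05 and 1.27e-06), and St14, the membrane protease matriptase, with 1.49 and 1.79 (edgeR adjusted p = 0.000109 and 1.48e-05).

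Transcription factors known from cornifying epithelium formed the largest tested list, and 10 of 25 rose in each set. Klf5, an epithelial zinc-finger factor, went from 3.08 CPM ± 1.58 SD (n = 4) to 49.8 ± 5.38 SD (n = 4) in set A and, in set B, to 51.9 ± 16.5 SD (n = 4). Its log2 fold changes were 4.01 (SE 0.32, edgeR adjusted p = 7.60e-08) and 4.06 (SE 0.32, edgeR adjusted p = 7.03e-08). Klf4, a factor of skin barrier formation, rose by 2.33 and 1.77 log2 units (edgeR adjusted p = 0.000320 and 0.00341). The AP-1 subunit gene Fosl2 rose by 2.12 and 2.03 log2 units (edgeR adjusted p = 1.54e-06 and 2.84e-06), and Jun and Junb of the same complex rose in both sets. Elf3, Ehf, Grhl2 and Stat3 also rose in both, Cebpd was called higher in set A only and Nfe2l2 in set B only. Cebpa and Maf fell in both sets, and Ovol1 and Zfp750, which act in epidermal differentiation, were called lower in set B only. None of these factors was called between the sets.

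**Figure D4:**
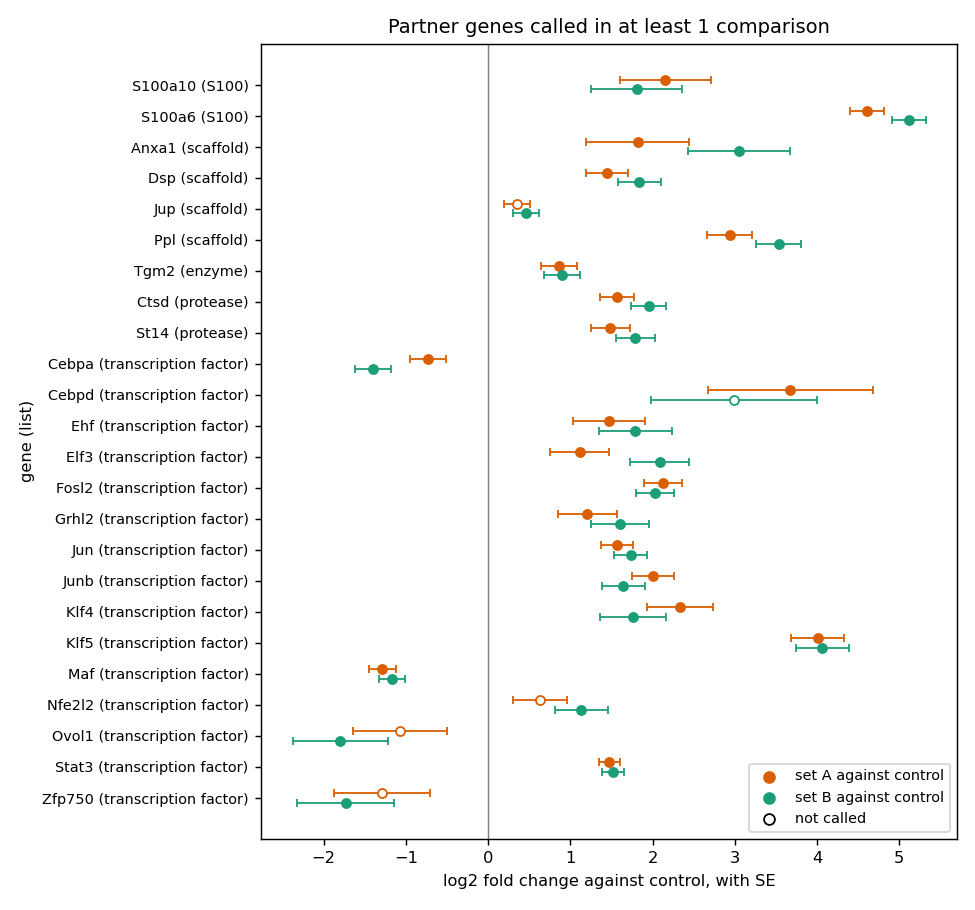
Log2 fold change against control (horizontal axis, with SE) of the 24 partner genes called in at least 1 comparison, each with its list in brackets. Filled points were called at an edgeR adjusted p below 0.05, open points were not, and called genes whose controls were at the floor (Aloxe3 and Pkp1) are left out. S100a6 is farthest to the right (4.61 and 5.12), followed by Klf5 (4.01 and 4.06), and Cebpa and Maf are left of 0 in both sets, which share their controls.

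Markers of epithelia that normally cornify or express Sprr genes moved in part. Of all genes tested, 10.5% rose in set A and 10.9% in set B. Summed urothelial markers were 10.03 to 16.7 CPM in controls, 66.0 to 165 in kidneys of set A and 76.0 to 274 in those of set B, and 1 of 4 tested rose in each set, Krt5 (9.38 CPM ± 2.80 SD, n = 4, in controls, 117 ± 43.6 SD, n = 4, in set A and, in set B, 148 ± 84.4 SD, n = 4). The defining urothelial genes were near or at 0: Upk2, Upk3b and Psca had no count in any of the 12 kidneys, Upk3a had none in the 8 ischemic kidneys, and Upk1a and Upk1b stayed at or below 4.27 CPM. Summed keratinocyte markers were 2.61 to 9.20 CPM in controls, 29.6 to 93.6 in kidneys of set A and 44.0 to 134 in those of set B, and 1 of 3 tested rose in each set, Krt14 (4.46 CPM ± 2.75 SD, n = 4, in controls, 58.4 ± 32.5 SD, n = 4, in set A and, in set B, 73.4 ± 42.8 SD, n = 4). Of the suprabasal genes in the list, Krt1, Krt2 and Krtdap had no count in any kidney. Krt10 reached 2.92 CPM in a control, 4.32 CPM in a kidney of set A and 3.53 CPM in one of set B, and Sbsn (suprabasin) averaged 0.442 CPM ± 0.353 SD (n = 4) in controls, 0.665 ± 0.473 SD (n = 4) in set A and, in set B, 3.19 ± 2.78 SD (n = 4). Neither was called.

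Among the 8 ischemic kidneys no relation between a basal keratin and these genes passed adjustment. With Krt5, r was 0.26 for Sprr1a (rho = 0.29), 0.33 for Sprr2f (rho = 0.24) and 0.40 for Sprr2g (rho = 0.33), and with Krt14 it was 0.42 for Sprr1a (rho = 0.40), 0.29 for Sprr2f (rho = 0.29) and 0.33 for Sprr2g (rho = 0.26), with exact permutation p-values from 0.304 to 0.582. Without the 2 kidneys of most extreme keratin level, r turned negative for Sprr2f (-0.25 with Krt5 and -0.25 with Krt14) and for Sprr2g (-0.38 and -0.43), and became 0.65 and 0.90 for Sprr1a. For Ivl, r was 0.69 with Krt5 (exact permutation p = 0.0590, adjusted p = 0.295, rho = 0.45, exact permutation p = 0.267) and 0.71 with Krt14 (exact permutation p = 0.0477, adjusted p = 0.295, rho = 0.57, exact permutation p = 0.151). Both rested on the 2 kidneys with the most extreme keratin level, without which r was -0.02 and 0.20. For Tgm1, r was -0.61 with Krt5 (rho = -0.29) and -0.59 with Krt14 (rho = -0.45), with exact permutation p-values from 0.108 to 0.501, and without the 2 extreme kidneys it was 0.50 and 0.30. None of the 15 relations with library total, Krt5 and Krt14 passed adjustment, and the part of Krt5 or Krt14 expressing cells in the Sprr and Ivl levels was not tested. Of the leukocyte markers, 1 of 4 tested was called in each set. Of all genes tested, 22.3% were called in set A and 22.8% in set B, so nothing is read from this count. The marker called was Cd3e of T cells, which had 18 to 182 counts in controls and none in the 8 ischemic kidneys (edgeR adjusted p = 0.0412 and 0.0472). Summed leukocyte markers were 4.89 to 7.85 CPM in controls, 4.15 to 11.1 in kidneys of set A and 3.73 to 12.4 in those of set B.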

How the data were processed

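RNA of 12 mouse kidneys was sequenced as stranded mRNA libraries with single reads. Reads were checked with FastQC, mapped to mm10 with STAR and counted per gene with HTSeq by the authors, and the values they deposited are raw counts per gene. Versions are not given in the sources used here. The counts entered edgeR 4.0.16 under R 4.3.3 (default filter, minimum count 10 and minimum total 15, TMM scaling, 1 quasi-likelihood model of 3 groups over 12 kidneys, two-sided tests, Benjamini-Hochberg adjustment over 11664 genes, threshold 0.05). Log2 CPM for correlations used a prior count of 2. Alternatives used DESeq2 1.42.0, limma 3.58.1, other scalings and filters, a replicate term and leaving out each kidney. The fit was tested on simulated data. The genes and lists were chosen with earlier results of these data known. Up to 3 genes per list were named, those called in both sets with the largest mean log2 fold change, an average log2 CPM not below 1, and groups separate from the controls. Promoters came from RefSeq, and gene positions, exon lengths and transcripts from GENCODE M21. Symbols absent from the table (Csta1, Epb42, Adgre1) were matched by synonym, and Flg and Ly6g remained unmatched. Totals from 15367342 to 44793350 counts set the precision of low values. 1 listed kidney marker is not reported here and was left out of the marker sums.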

Additional observations from a re-analysis of the deposited data

Results flagged for a closer look

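In groups of 4 kidneys, 6 of 69 groups (23 genes) held a kidney whose gap to its nearest neighbour was large against the group's range. Among the 69 are the controls of Ivl, Sprr2h and Aloxe3, all at 0, where no kidney could be marked. In groups with differing values, chance alone marks about 1 in 20. That rate does not apply to Sprr1a and Sprr2h, where the other 3 kidneys are at 0 and any single value would be marked. Sprr1a was at 1.52 CPM in control replicate 4 and at 0 in the other 3 controls. Sprr2h was at 0.696 CPM in set B replicate 2 and at 0 in the other 3 kidneys of that set. Fosl2 was at 209 CPM in set A replicate 2, against 361 to 382 CPM in the other 3. Among the genes most like the mean profile of Sprr1a, Sprr2f, Sprr2g, Ivl and Tgm1, Lynx1 was at 4.13 CPM and Arl4c at 23.1 CPM in set A replicate 1, the next values being 2.05 and 14.01 CPM. Pkdcc was at 7.58 CPM in control replicate 1, the next value being 2.96 CPM.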

How the results depend on the processing

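The number of genes called between set B and set A was 1, and it was 44 with DESeq2, 6 without a filter, 0 with only the 2 groups compared, 0 with limma-trend and 0 to 7 with 1 kidney left out. Sprr1a, Sprr2f, Sprr2g, Ivl and Tgm1 were called in none of these, with adjusted p from 0.731 to 1.0. Between set B and set A, the log2 difference of Ivl ran from -0.42 (without set B replicate 4) to 1.58 when 1 kidney was left out, and that of Sprr2f from -0.50 to 0.19, turning positive without set A replicate 1 (0.09) or 4 (0.13) and set B replicate 1 (0.19) or 3 (0.10). The number of co-varying pairs ran from 0 to 2, with 1 pair without set A replicate 4. Partner genes called higher were 15 to 19 (set A) and 17 to 21 (set B) with 1 kidney left out, and 17 to 22 and 18 to 27 in the other settings. Partner genes called lower were 1 to 3 and 2 to 4. Same-numbered kidneys did not deviate together (r -0.06 to 0.05 over 12 pairs). No pair is known to share a mouse, so these values cannot show whether the numbers pair kidneys. With a replicate block, 2491 genes were called in set A, 2531 in set B and 1 between the sets. Levels near the floor of 0.0661 to 0.190 CPM, as for Sprr2e, are limited by depth. Sprr2h in set A replicates 1 and 3, at 9.04 and 4.89 CPM, lay far above that floor. Alternatives for the level of Sprr2h were chosen after seeing the data.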
